A study of Homo sapiens with 6 samples.

Results

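Cell junction genes were followed in EndoC-βH1, a human pancreatic beta cell line, by messenger RNA sequencing of 3 control and 3 cytokine-exposed libraries. Members were every gene whose symbol names a numbered cadherin, claudin or connexin, a zonula occludens scaffold, occludin, EPCAM, an alpha or delta catenin, plakoglobin, desmoplakin, a desmoglein, a desmocollin, NCAM1, NCAM2 or nectin 1, 3 or 4. The rule found 91 loci with 90 distinct symbols among the 61695 loci of the authors' deposited count table, and 564 of the 274669 transcripts of the authors' deposited isoform table. The labels place the control cells before exposure, but their extraction protocol speaks of 24 h with or without the cocktail, so exposure and time in culture cannot be told apart. Cells adhered for 24 h in serum-free medium with 11 mM glucose on a Matrigel-fibronectin coat, and the cocktail held IL-1β at 5 ng/ml, TNF-α at 10 ng/ml, IFN-γ at 50 ng/ml and IL-17 at 100 ng/ml. All libraries came from this 1 cell line, and nothing in the labels ties the 3 libraries of a group to separate cultures. The p-values therefore reflect only how far these libraries spread, and that spread may be technical.

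Cells of an epithelium are held together by several kinds of contact. Adherens junctions use cadherins, which bind the cadherins of the next cell outside and catenins inside. Tight junctions use claudins and occludin, which are tied to actin by the zonula occludens scaffolds, among them TJP1 and TJP3. Desmosomes join desmogleins and desmocollins through plakoglobin and desmoplakin to keratin, and gap junctions are channels of connexins that pass ions and small molecules between cells. In beta cells E-cadherin (CDH1) holds islet cells together and connexin 36 (GJD2) couples them electrically, so that calcium and insulin pulses run in step.

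The authors' deposited tables give group values and 1 comparison, and values for each library are not used here. A count is the mean over the 6 libraries of reads divided by a size factor, and a group count is a fitted value computed from that mean and the fold change in the authors' deposited table. An FPKM is a read level per length and depth, which lets genes be ranked against each other. A log2 fold change is cytokine over control, so 1 is a doubling and a negative value a fall, and a gene was called when the deposited adjusted p or q was under 0.05. Since the samples are bulk RNA, fewer cells that make a transcript and less of it in each cell cannot be told apart.

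The authors' deposited count table summed to a mean of 40881975 normalized counts per library, and 37.7% of its 30206 tested loci were called. The beta cell identity of the line was visible in the authors' deposited FPKM table, where 10 of 12 beta cell markers had at least 1 FPKM; PDX1 stood at 145 FPKM in controls and at 146 FPKM after exposure. INS and CHGA, listed at 0 FPKM, held a mean of 47336 counts (at a locus shared with other genes) and 216419 counts in the authors' deposited count table. Of the 5 endothelial markers none reached 1 FPKM, with a summed level in the authors' deposited table of 0.00828 FPKM in controls and 0.0355 FPKM after exposure, and KDR was listed at 0 in both groups. Summed deposited levels in controls and with cytokines were 91.1 and 107 FPKM for 6 duct markers, 33.7 and 25.5 FPKM for 5 acinar markers, 29.6 and 35.4 FPKM for 8 mesenchymal markers, and 363 and 337 FPKM for 6 immune markers. Most of these sums sat at loci shared with other genes (MUC1, PDGFRA and CD68) or in CPA1, while PRSS1, PNLIP, CTRB1, CELA3A and CD3E were listed at 0 FPKM in both groups. SOX9, a duct factor, rose from 15.0 to 79.6 counts, and COL1A1, a collagen chain, rose from 532 to 1394 counts in the authors' deposited count table, and the part of such cells in the results on junction genes was not tested.

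Of the 91 loci, 68 were tested in the authors' deposited count table, 6 had no reads, and 17 had reads but no adjusted p. With cytokines 25 members rose and 19 fell (adjusted p under 0.05, the authors' deposited DESeq test), and 24 did not pass. Over all tested loci 18.0% rose and 19.7% fell in the same deposited table. The median log2 fold change was 0.08 for the 68 tested members and 0.05 for all tested loci. At 50 or more counts, 42 members were present, of which 22 rose, 17 fell and 3 did not pass. At that level 67.6% of 14592 loci were called in the authors' deposited table, 29.9% higher and 37.7% lower, and the medians were 0.10 for the members and -0.04 for all loci. Counts are given for some of the classes, with no test of the difference between classes. Of the 14 cadherins at 50 or more counts, 3 rose and 8 fell, while 7 of 9 claudins and occludin rose. These 9 include the shared loci of CLDN7, CLDN12 and CLDN15. Among the desmosomal genes 3 rose and 1 fell, and among the alpha and delta catenins 2 rose and 3 fell. In the class of EPCAM, NCAM and nectin genes 2 rose and 2 fell.

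**Figure D1:**
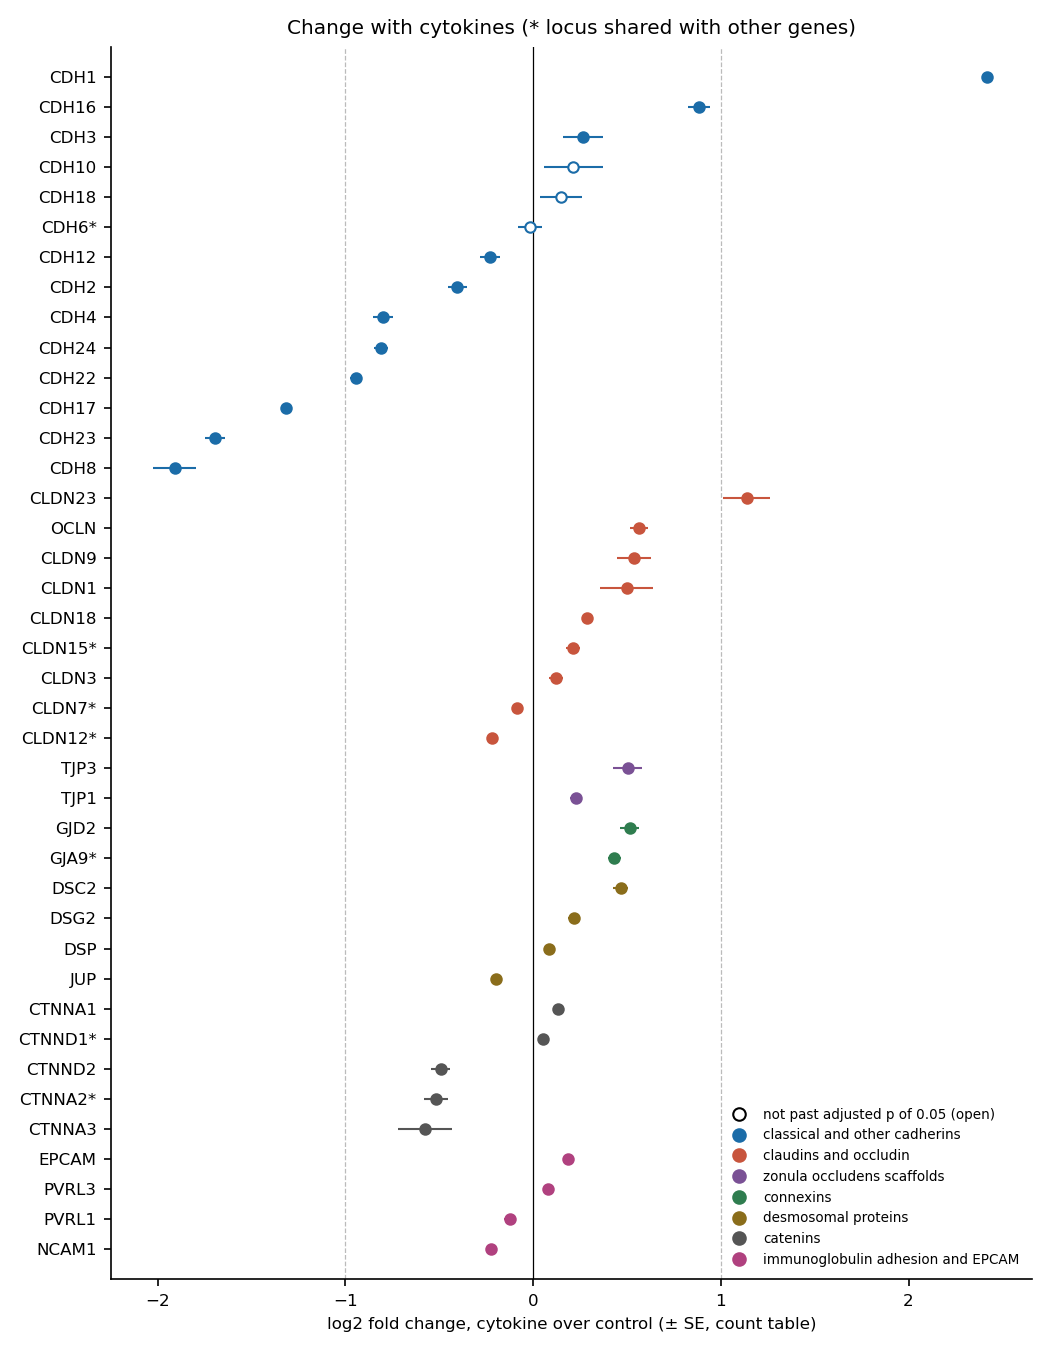
Log2 fold change of cytokine over control with its SE for the junction genes at 50 or more counts that are reported, from the authors' deposited count table, coloured by class; open points did not pass an adjusted p of 0.05, an asterisk marks a locus shared with other genes, and dashed lines mark a doubling and a halving. CDH1 stands alone at 2.42 on the right, and CDH8 and CDH23 lie furthest left at -1.91 and -1.70.

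Transcripts of epithelial junctions were abundant in the control libraries. In controls, by the authors' deposited FPKM tables, a total of 43 members had at least 1 FPKM and 28 had at least 10 FPKM. EPCAM, an epithelial adhesion glycoprotein, was the highest member at 352 FPKM in controls, followed by desmoplakin (DSP) at 122 FPKM and claudin 18 (CLDN18) at 116 FPKM. Plakoglobin (JUP), the catenin that sits in both desmosomes and adherens junctions, had 95.1 FPKM, and the transcripts of CLDN7 summed to 75.4 FPKM in the authors' deposited tables. CDH17, also called liver-intestine cadherin, had 69.6 FPKM, CTNNA1 (αE-catenin) 67.6 FPKM and CLDN3 62.8 FPKM in the authors' deposited table. CDH1 came ninth with 54.3 FPKM and nectin 1 (PVRL1) followed with 40.7 FPKM in controls. CDH17 thus stood above CDH1 among control transcripts, an order that is given with no test because library values are not used here.

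With cytokines CDH1 was the second highest member, at 297 FPKM in the authors' deposited table, behind EPCAM at 410 FPKM. CDH17 moved from rank 6 to rank 13, at 28.0 FPKM. DSP at 134 FPKM, CLDN18 at 146 FPKM and JUP at 84.3 FPKM remained among the 6 highest members of the authors' deposited tables with cytokines.

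**Figure D2:**
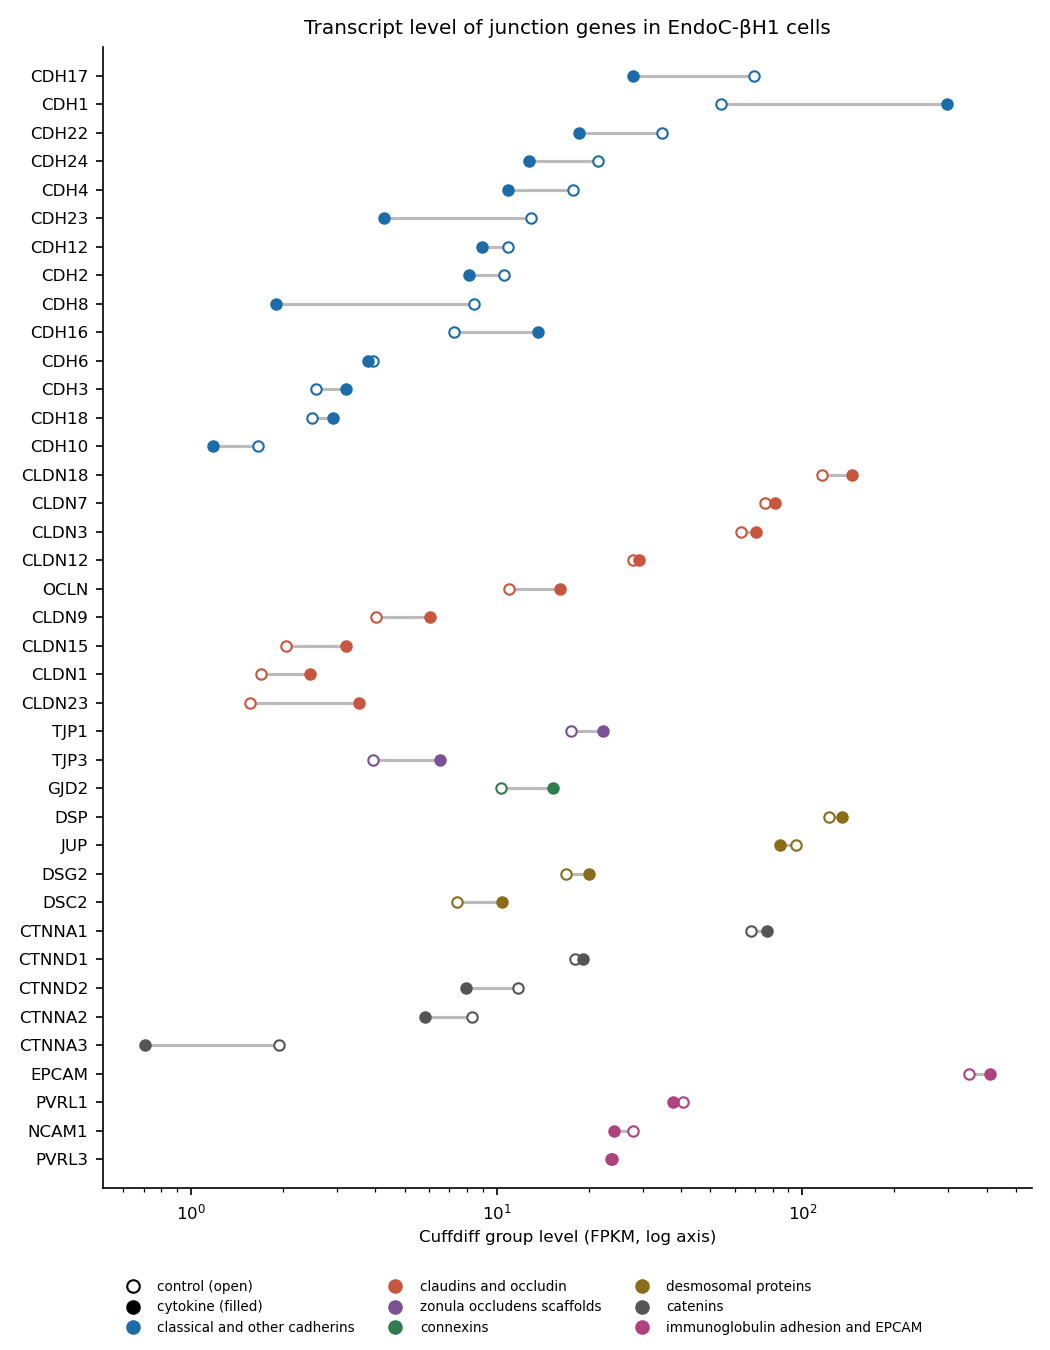
Group level in FPKM on a log axis for the junction genes at 50 or more counts that are reported, control open and cytokine filled, coloured by class and ordered by control level within a class; for loci shared by several genes the level is the sum of the gene's own transcripts, and GJA9 is left out because its own transcripts summed to 0.0701 FPKM. CDH1 runs right from 54.3 to 297 FPKM, past CDH17, which runs left from 69.6 to 28.0 FPKM, and CDH8 and CDH23 also have long lines to the left.

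CDH1 had the largest rise of the members at 50 or more counts. CDH1 encodes E-cadherin, the classical cadherin of epithelia, and lies on chromosome 16 (hg38, 68737292 to 68835537, plus strand, GENCODE). It rose from 9963 to 53208 counts, with a log2 fold change of 2.42 ± 0.02 (SE) and an adjusted p listed as 0 in the authors' deposited count table. This was a 5.34-fold rise. The authors' deposited FPKM table gave 54.3 and 297 FPKM, a log2 fold change of 2.45 with q = 2.32e-04. A single transcript of 16 exons and 882 codons, ENST00000261769, carried 95.8% of the CDH1 level in controls and 96.0% with cytokines, and rose from 52.0 to 285 FPKM in the authors' deposited isoform table.

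Of the other cadherins at 50 or more counts, 8 fell, 2 rose and 3 did not pass. CDH8, a neural cadherin, dropped from 639 to 170 counts (log2 fold change -1.91 ± 0.12 SE, adjusted p = 1.98e-60, the authors' deposited count table), which is 3.76-fold lower. CDH23, a large atypical cadherin known from the tip links of hair cells, fell from 2471 to 762 counts (log2 fold change -1.70 ± 0.05 SE, adjusted p = 2.88e-217, the authors' deposited count table). CDH17 fell from 11222 to 4509 counts (log2 fold change -1.32 ± 0.03 SE, adjusted p listed as 0, the authors' deposited count table), 2.49-fold lower. These 3 cadherins have little in common in structure: CDH8 is a classical type II cadherin, CDH23 has a long series of extracellular repeats, and CDH17 has a short cytoplasmic tail that does not bind catenins.

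Smaller falls came from CDH22, CDH24 and CDH4, each also a classical cadherin. CDH22 went from 5985 to 3108 counts (log2 fold change -0.95 ± 0.03 SE, adjusted p = 1.27e-194), CDH24 from 3687 to 2099 counts (-0.81 ± 0.04, adjusted p = 6.64e-104) and CDH4, known as R-cadherin, from 1786 to 1026 counts (-0.80 ± 0.05, adjusted p = 2.67e-49) in the authors' deposited count table. N-cadherin (CDH2), the other main cadherin of beta cells, fell by 0.40 ± 0.05 (SE) on the log2 scale, from 1789 to 1352 counts, in the authors' deposited count table. CDH12 fell by 0.23 ± 0.05 (SE) on the same scale, from 1467 to 1252 counts. CDH1 and CDH2 therefore moved in opposite directions: CDH1 stood at 54.3 FPKM against 10.6 FPKM of CDH2 in controls, and at 297 against 8.14 FPKM with cytokines, in the authors' deposited FPKM table.

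Besides CDH1, CDH16 and CDH3 rose among the cadherins. CDH16, a kidney cadherin of the same short-tailed subfamily as CDH17, went from 927 to 1712 counts (log2 fold change 0.88 ± 0.06 SE, adjusted p = 7.18e-49, the authors' deposited count table). The 2 cadherins of that subfamily thus moved in opposite directions: CDH17 fell from 69.6 to 28.0 FPKM and CDH16 rose from 7.27 to 13.7 FPKM in the authors' deposited FPKM table. CDH3, or P-cadherin, lies next to CDH1 on chromosome 16 (68636189 to 68727468) and rose by 0.27 ± 0.11 (SE) on the log2 scale, from 312 to 375 counts (adjusted p = 0.0364), in the authors' deposited count table. Its neighbour CDH1 rose by 2.42 on the same scale. CDH6, CDH18 and CDH10 did not pass, with log2 fold changes of -0.02 ± 0.06, 0.15 ± 0.11 and 0.21 ± 0.16 (SE) in the authors' deposited count table. CDH5, the cadherin of endothelium, had a mean of 0.181 counts and was not tested.

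The transcripts of CDH17 were listed with falls of different size. The gene lies on the minus strand of chromosome 8 (hg38, 94127162 to 94217303), and the authors' deposited isoform table lists 5 CDH17 transcripts, of which 3 were tested. The leading transcript, ENST00000027335, starts at 94208555 and dropped from 59.3 to 26.0 FPKM (log2 fold change -1.19, q = 8.33e-04, the authors' deposited isoform table). The second, ENST00000450165, starts upstream at 94217303 and dropped from 9.56 to 1.70 FPKM (log2 fold change -2.49, q = 8.33e-04, the authors' deposited isoform table). Both have 18 exons and a reading frame of 832 codons in GENCODE, and their listed starts and ends differ. The share of the upstream start went from 13.7% of the CDH17 level in controls to 6.08% with cytokines, and that of the leading transcript from 85.2% to 93.1%. The difference between the falls of the 2 transcripts was not tested. ENST00000441892, a form of 580 codons, had 0.504 and 0.186 FPKM and did not pass (q = 0.674, the authors' deposited isoform table).

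**Figure D3:**
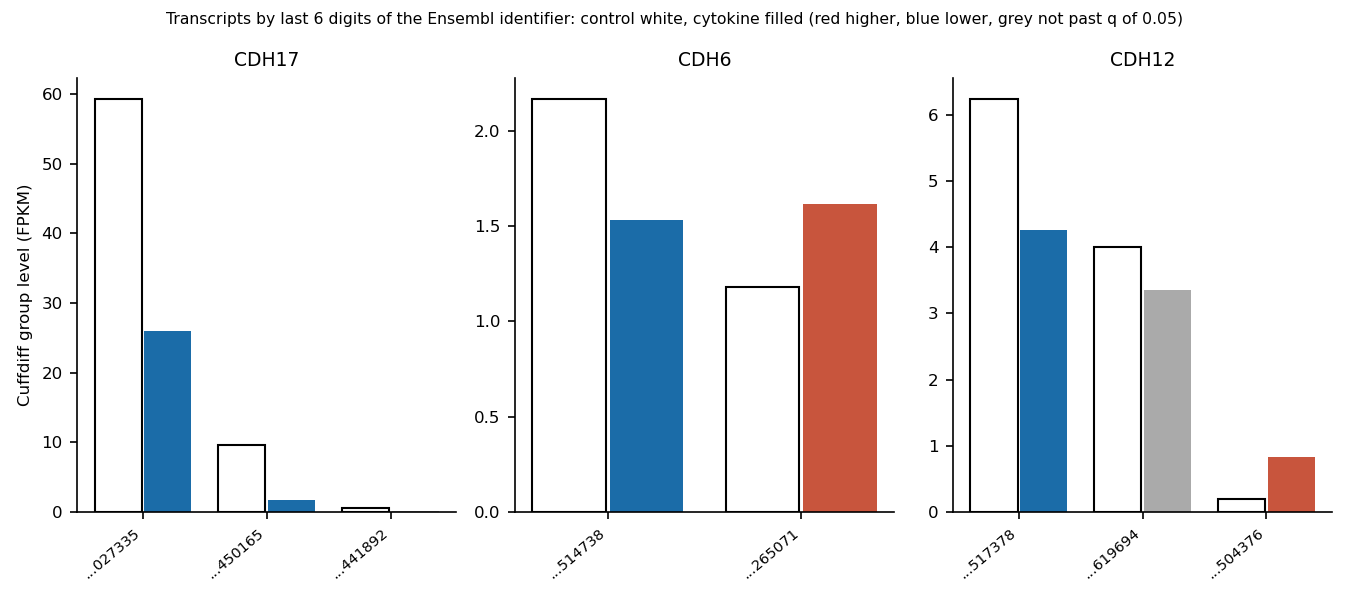
Level in FPKM of transcripts of CDH17, CDH6 and CDH12 in the authors' deposited isoform table (up to 4 per gene, each with at least 0.5 FPKM in a group), control as white bars and cytokine as filled bars, blue where lower, red where higher and grey where q was not under 0.05. Both main CDH17 transcripts fell, and CDH6 and CDH12 each have 1 transcript that fell and 1 that rose.

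Across all members 39 of 170 tested transcripts were called in the authors' deposited isoform table, 23 higher and 16 lower, from 30 of 46 symbols with a tested transcript. Over all transcripts 9.87% of 95649 tested were called. The named transcript with the most FPKM was the same in both groups for 39 of 41 members that had one of at least 1 FPKM. It differed for CDH6 and CLDN15. Assembled transcripts without a symbol were not compared, and they held 59.4% of the control level of CDH8 and 49.5% of that of NCAM1. CDH6 had 1 called transcript in each direction. Its shorter form ENST00000514738, of 608 codons, fell from 2.17 to 1.53 FPKM (log2 fold change -0.50, q = 0.00232) and its longer form ENST00000265071, of 790 codons, rose from 1.18 to 1.61 FPKM (log2 fold change 0.45, q = 8.33e-04) in the authors' deposited isoform table. The longer form went from 29.8% to 42.6% of the summed level of the named CDH6 transcripts. The CDH6 locus, shared with another gene, held 936 and 924 counts in the authors' deposited count table. In the authors' deposited FPKM table the locus had 5.04 FPKM in controls and 4.54 FPKM with cytokines, called lower (Cuffdiff q = 0.0499). CDH12 was the other member with called transcripts in both directions: ENST00000517378, which retains an intron, fell from 6.24 to 4.26 FPKM (q = 0.00436), and the coding form ENST00000504376 rose from 0.198 to 0.835 FPKM (q = 0.00160) in the authors' deposited isoform table.

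For CDH23 the transcript with the most FPKM was ENST00000299366, which has a reading frame of 1061 codons and dropped from 6.76 to 2.71 FPKM (log2 fold change -1.32, q = 8.33e-04, the authors' deposited isoform table). The longest form in GENCODE, of 3354 codons, was listed at 0 FPKM in both groups. For CDH8 the leading named transcript, ENST00000584337, dropped from 1.17 to 0.331 FPKM (log2 fold change -1.81, q = 8.33e-04, the authors' deposited isoform table). Of the CDH8 level in controls, 59.4% lay on assembled transcripts that carry no gene symbol, which limits what the named CDH8 transcripts show. The leading transcripts of CDH16 (ENST00000299752, 3.02 to 6.40 FPKM), CDH24 (ENST00000487137, 12.3 to 5.89 FPKM) and CDH22 (ENST00000537909, 32.9 to 17.1 FPKM) moved as their genes did in the authors' deposited isoform table, with log2 fold changes of 1.09, -1.06 and -0.94.

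Among the alpha and delta catenins, which act on cadherin tails, CTNNA1 rose slightly and CTNNA2, CTNNA3 and CTNND2 fell. CTNNA1 went from 10141 to 11109 counts (log2 fold change 0.13 ± 0.02 SE, adjusted p = 3.13e-08, the authors' deposited count table). CTNNA2 (αN-catenin) fell by 0.52 ± 0.06 (SE) on the log2 scale, from 1131 to 789 counts, in the authors' deposited count table, at a locus shared with another gene. CTNNA3 (αT-catenin) went from 219 to 147 counts (log2 fold change -0.58 ± 0.14 SE, adjusted p = 1.87e-04, the authors' deposited count table), and its value in the authors' deposited FPKM table was -1.45, with 77.0% of its control level on assembled transcripts without a symbol. CTNND2 (δ-catenin, a neural form) fell by 0.49 ± 0.05 (SE) on the log2 scale, from 1719 to 1222 counts, in the authors' deposited count table. The locus of CTNND1 (p120-catenin) rose by 0.05 ± 0.02 (SE, adjusted p = 0.0394) in the authors' deposited count table but holds TMX2 and other genes too, and did not pass in the authors' deposited FPKM table (q = 0.837). The 3 that fell had lower levels in controls, at 8.32 FPKM for CTNNA2, 1.94 FPKM for CTNNA3 and 11.7 FPKM for CTNND2, than CTNNA1 at 67.6 FPKM in the authors' deposited tables.

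Of the scaffolds that tie tight junctions to actin, TJP1 (ZO-1) rose by 0.23 ± 0.03 (SE) from 4551 to 5335 counts, and TJP3 (ZO-3) by 0.50 ± 0.08 (SE) from 497 to 704 counts, on the log2 scale of the authors' deposited count table. TJP1 was the higher of these per length in controls, at 17.4 FPKM against 3.93 FPKM for TJP3 in the authors' deposited FPKM table.

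Occludin (OCLN), a membrane protein of the tight junction strand, rose from 1402 to 2076 counts (log2 fold change 0.57 ± 0.05 SE, adjusted p = 2.14e-31, the authors' deposited count table). Both of its called transcripts rose, ENST00000396442 from 7.35 to 10.4 FPKM and ENST00000514370 from 2.93 to 4.72 FPKM, in the authors' deposited isoform table. CLDN23 had the largest rise of the claudins at 50 or more counts, from 145 to 319 counts (log2 fold change 1.14 ± 0.13 SE, adjusted p = 1.04e-18, the authors' deposited count table), but its level stayed low, at 1.56 and 3.55 FPKM. CLDN1, a barrier-forming claudin, rose from 153 to 216 counts (log2 fold change 0.50 ± 0.14 SE, adjusted p = 0.00171, the authors' deposited count table). CLDN9 rose from 348 to 505 counts (log2 fold change 0.54 ± 0.09 SE, adjusted p = 1.74e-08, the authors' deposited count table), with q = 0.155 in the authors' deposited FPKM table. The abundant claudins moved less: CLDN18 rose by 0.29 ± 0.02 (SE) and CLDN3 by 0.12 ± 0.04 (SE) on the log2 scale of the authors' deposited count table.

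CLDN18 is a claudin of lung and stomach with alternative first exons, each with its own start. In these cells nearly all of its level came from the upstream start on chromosome 3 (137998735, hg38, plus strand): ENST00000343735 had 116 FPKM in controls and 146 FPKM with cytokines (log2 fold change 0.33, q = 8.33e-04, the authors' deposited isoform table), which was 99.9% of the CLDN18 level in controls. ENST00000183605, which starts downstream at 138010165, had 0.0695 FPKM in controls and was listed at 0 FPKM with cytokines. The sequences before the 2 starts are shown because the data separate them. They are from RefSeq (GRCh38.p14), the first ends at the base before the longest transcript begins, the second ends at the base before the downstream start and lies inside the span of the upstream transcript, and capitals mark a match to CACCTG on either strand (CAGGTG when read on the other strand).
CLDN18 upstream start, chr3:137998566-137998734, plus strand: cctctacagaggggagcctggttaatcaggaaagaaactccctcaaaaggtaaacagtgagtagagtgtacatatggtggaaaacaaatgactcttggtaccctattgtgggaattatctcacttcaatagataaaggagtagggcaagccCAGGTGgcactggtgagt
CLDN18 downstream start, chr3:138009915-138010164, plus strand: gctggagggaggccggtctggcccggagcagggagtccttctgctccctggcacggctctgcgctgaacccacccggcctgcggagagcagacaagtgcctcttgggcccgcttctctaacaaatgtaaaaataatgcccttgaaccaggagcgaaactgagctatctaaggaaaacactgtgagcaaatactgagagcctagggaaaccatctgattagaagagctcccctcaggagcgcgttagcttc

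Several claudin loci hold other genes or few reads. The locus of CLDN7 fell by 0.08 ± 0.02 (SE) on the log2 scale of the authors' deposited count table but also holds GABARAP and CTDNEP1, and did not pass in the authors' deposited FPKM table (q = 0.831). The transcripts of CLDN7 itself summed to 75.4 FPKM in controls and 81.4 FPKM after exposure in the authors' deposited isoform table. The locus of CLDN12 fell by 0.22 ± 0.02 (SE) in the authors' deposited count table and also holds CDK14 and GTPBP10, while the CLDN12 transcripts summed to 28.0 and 29.2 FPKM. CLDN15 shares its locus with FIS1, and that locus rose by 0.21 ± 0.04 (SE) in the authors' deposited count table. The CLDN15 transcripts themselves summed to 2.05 FPKM in controls and 3.21 FPKM with cytokines, beside 89.3 and 103 FPKM for the locus. CLDN4 had a mean of 13.8 counts in the authors' deposited count table and did not pass (adjusted p = 0.974), while the authors' deposited FPKM table lists it at 29.9 and 31.2 FPKM (q = 0.633), and the cause of this gap between the tables was not tested.

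Under 50 counts there were 49 members, of which 26 were tested and 5 passed in the authors' deposited count table, beside 9.79% of 15614 tested loci at that level. CLDN10 rose from 4.11 to 20.7 counts (log2 fold change 2.34 ± 0.61 SE, adjusted p = 4.15e-04) and CLDN11 dropped from 43.7 to 18.4 counts (log2 fold change -1.25 ± 0.35 SE, adjusted p = 0.00139) in the authors' deposited count table. CLDN16, with a mean of 2.64 counts, rose (adjusted p = 0.00503, the authors' deposited count table), and no fold is given because it is listed at 0 FPKM in controls. DSC3 rose from 7.34 to 24.9 counts (adjusted p = 0.00218) and CDH7 fell from 27.6 to 11.9 counts (adjusted p = 0.0168) in the authors' deposited count table. CLDN11 (q = 0.218) and DSC3 (q = 0.0758) did not pass in the authors' deposited FPKM table, and CLDN10 had a log2 fold change of 3.26 there. CLDN8, CLDN17, CLDN22, CLDN25, GJB2 and GJB6 had no reads.

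Connexin 36 (GJD2), the gap junction protein that couples beta cells, lies on chromosome 15 (hg38, 34751032 to 34754998, minus strand) and rose from 1151 to 1644 counts (log2 fold change 0.51 ± 0.05 SE, adjusted p = 6.19e-23, the authors' deposited count table), a 1.43-fold rise. The authors' deposited FPKM table gave 10.3 and 15.3 FPKM with a log2 fold change of 0.57, and the single named transcript ENST00000290374 rose from 7.26 to 11.0 FPKM in the authors' deposited isoform table.

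The 250 bases before the start of GJD2 are shown because this is the connexin of beta cell coupling. The sequence is from RefSeq (GRCh38.p14), read on the gene's strand, with the match to CACCTG in capitals as above.
GJD2, chr15:34754999-34755248, minus strand: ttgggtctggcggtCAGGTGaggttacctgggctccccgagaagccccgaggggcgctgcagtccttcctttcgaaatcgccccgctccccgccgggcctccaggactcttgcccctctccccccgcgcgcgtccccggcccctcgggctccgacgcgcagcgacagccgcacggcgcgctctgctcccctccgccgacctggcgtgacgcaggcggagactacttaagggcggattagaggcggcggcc

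Other connexins were low or could not be assigned. GJA1 (connexin 43), the most widespread connexin, had a mean of 3.88 counts and did not pass (adjusted p = 0.175, the authors' deposited count table). The locus of GJA9 rose by 0.43 ± 0.04 (SE) in the authors' deposited count table, but it is shared with MYCBP and RRAGC, and the GJA9 transcripts summed to 0.0701 FPKM in controls. GJC3 and GJC1 were called higher in the authors' deposited FPKM table, at 2.81 and 3.98 FPKM (q = 2.32e-04) and at 0.147 and 0.870 FPKM (q = 0.00125), but did not pass in the authors' deposited count table, with log2 fold changes of 0.32 ± 0.31 and -0.35 ± 0.40 (SE). The call for GJC1 thus rests on the FPKM table, and the count table has the opposite sign.

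Desmosomal genes changed by less than a doubling in the members with many reads. DSP, the plakin that anchors keratin, was the member with the most reads and rose from 49910 to 53003 counts (log2 fold change 0.09 ± 0.02 SE, adjusted p = 8.15e-05, the authors' deposited count table). DSC2, a desmosomal cadherin, rose by 0.47 ± 0.04 (SE) on the log2 scale, from 1930 to 2668 counts, and its partner DSG2 by 0.22 ± 0.03 (SE), from 4051 to 4705 counts, in the authors' deposited count table. JUP fell by 0.20 ± 0.02 (SE), from 13214 to 11508 counts. DSG1, DSG3, DSG4 and DSC1, which mark stratified epithelia, had a mean of at most 1.01 counts and were not tested.

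EPCAM rose from 24371 to 27758 counts (log2 fold change 0.19 ± 0.02 SE, adjusted p = 9.99e-22, the authors' deposited count table). NCAM1, a neural and endocrine adhesion molecule of the immunoglobulin family, fell by 0.22 ± 0.03 (SE) on the log2 scale, from 5892 to 5045 counts. Nectin 1 (PVRL1) fell by 0.13 ± 0.03 (SE) and nectin 3 (PVRL3) rose by 0.08 ± 0.03 (SE) in the authors' deposited count table. Neither nectin passed in the authors' deposited FPKM table, with q = 0.281 and q = 0.954.

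The 2 deposited gene tables come from the same 6 libraries and are no independent check of each other. Of the members, 53 were tested and 40 called in the authors' deposited FPKM table, 23 higher and 17 lower, against 35.7% called over all 21865 tested loci. Of these members 35 were called in both tables, with the same sign in all 35, while 7 were called in the count table alone and 5 in the FPKM table alone. The 5 were CDH6, CDH9, CDH20, GJC1 and GJC3. CDH10 had opposite signs in the 2 tables, with 124 and 144 counts against 1.66 and 1.18 FPKM, and passed in neither of the authors' deposited gene tables. Its transcript ENST00000264463 rose from 0.757 to 0.968 FPKM (q = 0.0319) in the authors' deposited isoform table, while 48.1% of the control FPKM lay on assembled transcripts without a symbol.

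**Figure D4:**
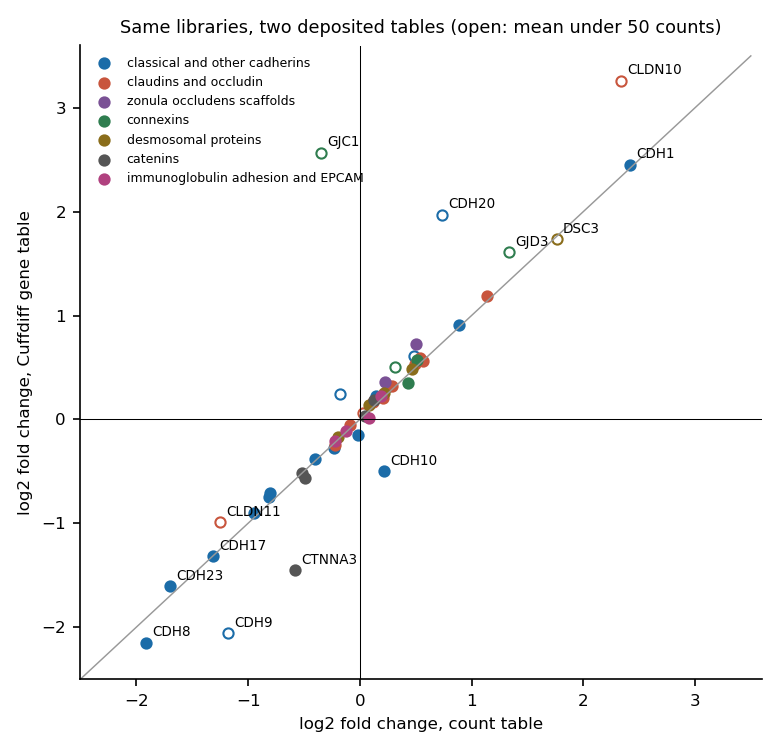
Log2 fold change of cytokine over control of the reported junction genes tested by both methods, the count table on the horizontal and the Cuffdiff FPKM table on the vertical axis, coloured by class, open below 50 counts, with the line of equal values. Genes with many reads lie along the line from CDH8 at the lower left to CDH1 at the upper right, while GJC1, CDH20, CDH9, CTNNA3 and CDH10 lie off it.

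Genes that build or control junctions but fall outside the member rule were taken from a list of 55. Of these 52 were tested in the authors' deposited count table, 18 rose, 16 fell and 18 did not pass, with a median log2 fold change of -0.03. At 50 or more counts 31 of 46 partners were called, a share near the 67.6% of all loci at that level. In the adherens group, β-catenin (CTNNB1), which binds the tail of CDH1, fell from 16973 to 13160 counts (log2 fold change -0.37 ± 0.02 SE, adjusted p = 8.40e-62, the authors' deposited count table), while CDH1 rose. Of 9 adherens partners 3 rose and 5 fell, and of 20 tight junction and polarity genes 5 rose and 7 fell in the authors' deposited count table. JAM2, a junctional adhesion molecule of the immunoglobulin family, rose from 145 to 301 counts (log2 fold change 1.05 ± 0.13 SE, adjusted p = 7.08e-15, the authors' deposited count table). Among the 7 tested desmosome and keratin genes 3 rose, all of them keratins, and 2 fell. KRT18 rose by 1.07 ± 0.03 (SE) on the log2 scale, from 2549 to 5340 counts, at a locus with 2 symbols in the authors' deposited count table.

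**Figure D5:**
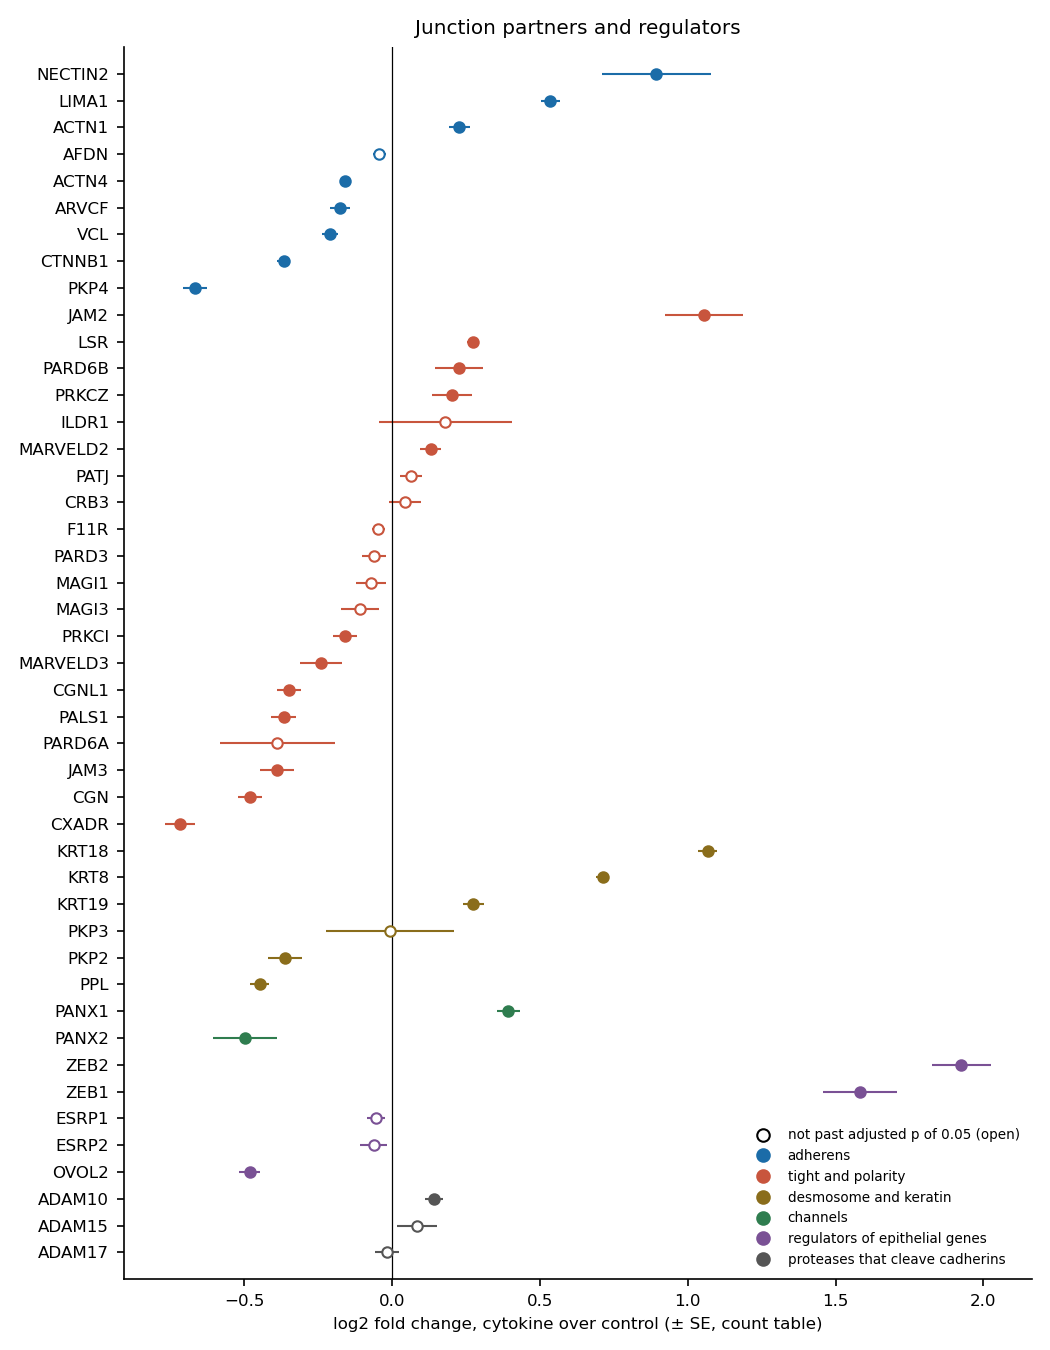
Log2 fold change of cytokine over control with its SE for reported junction partners and regulators at 50 or more counts in the authors' deposited count table, coloured by group, open where the adjusted p was not under 0.05. ZEB2 and ZEB1 lie furthest right at 1.93 and 1.58, followed by KRT18 and JAM2, and no plotted partner lies below -1.

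Some factors known to repress CDH1 rose and others did not pass. ZEB2 went from 174 to 661 counts (log2 fold change 1.93 ± 0.10 SE, adjusted p = 1.20e-82) and ZEB1 from 127 to 379 counts (log2 fold change 1.58 ± 0.13 SE, adjusted p = 2.62e-35) in the authors' deposited count table, both zinc finger repressors of epithelial genes. The rises were smaller in the authors' deposited FPKM table, with log2 fold changes of 0.71 for ZEB2, from 2.60 to 4.24 FPKM, and 1.16 for ZEB1, from 0.991 to 2.21 FPKM. SNAI1, of the same kind, had 7.12 and 17.8 counts (adjusted p = 0.0478, the authors' deposited count table) and SNAI2 had no reads. TWIST1, another repressor of CDH1, did not pass, with 14.3 and 10.9 counts (log2 fold change -0.39 ± 0.51 SE, adjusted p = 0.654, the authors' deposited count table). The epithelial splicing factors ESRP1 and ESRP2 did not pass, with log2 fold changes of -0.05 ± 0.03 and -0.06 ± 0.05 (SE) in the authors' deposited count table. Of the 5 tested proteases known to cut cadherins 2 rose and 3 did not pass. ADAM10 rose by 0.14 ± 0.03 (SE), from 6075 to 6701 counts, but did not pass in the FPKM table (q = 0.443). MMP9 was low and rose from 26.2 to 54.2 counts (log2 fold change 1.05 ± 0.32 SE, adjusted p = 0.00291, the authors' deposited count table). ADAM17 did not pass (adjusted p = 0.837, the authors' deposited count table).

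The 250 bases before each RefSeq start were searched on both strands for 3 motifs in called members at 50 or more counts. The search used whole windows, while the CLDN18 upstream sequence above is printed without the last 81 bases of its window, which a longer transcript covers. Of these 39 members, 24 had a window in the RefSeq table, with 48 windows in all because some genes have several starts, which can overlap. CDH1, CDH17 and CDH16 had no window. CACCTG, a core bound by ZEB and SNAI factors, was in 9 of 23 windows of members that rose and in 4 of 25 windows of members that fell, beside 17.5% of all 34943 windows. These windows belonged to CLDN18, DSC2, DSG2, DSP, GJD2, OCLN, TJP1 and TJP3, which rose, and to CDH4, CDH23, CLDN7 and JUP, which fell. The share of all genes with such a window was not computed, so no count by gene is given. GAAA, any 2 bases and GAAA, a core of interferon response elements, was in 1 of 23 and 2 of 25 windows, beside 3.02% of all windows. TTC, any 3 bases and GAA, the form of gamma activated sites, was in 2 of 23 and 3 of 25 windows, beside 6.56% of all windows. A match is a run of letters and no measure of binding.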

How the data were processed

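The submitters' processing notes name STAR 2.5.2b and StringTie, Cuffdiff 2.2.1 and DESeq for testing, FastQC 0.10.1, bcl2fastq, and genome build hg38. Not given in the sources used here are the counter, its strand setting and the annotation. Libraries were directional and poly(A)-selected, per the labels' protocols. The signal in the deposited count table is, per the file headers, a mean over the 6 libraries of counts scaled by size factors. Log2 fold changes with SE, the test score, and p-values and q-values are the authors' own as deposited. FPKM values are Cuffdiff group levels, per the file headers. From these, group counts were computed as fitted values, and members and partners were counted (adjusted p or q under 0.05). Transcripts were matched to GENCODE (537 of 564), and all steps used Python 3.11.15 and pandas 2.3.3. The adjustment of p-values and the centring on loci of at least 1000 counts were tested on simulated statistics. Named were members at 50 or more counts, the highest in control FPKM, the 8 largest rises and falls, transcripts of at least 1 FPKM and all tested CDH17 transcripts, and partners past a doubling with CTNNB1; lower genes and genes where tables differ were chosen after their values were seen. Alternatives covered thresholds, the other table, centring, low levels and shared loci. The members and lists were chosen with earlier results of these data known. Values of some genes that the counts include are not reported here.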

Additional observations from a re-analysis of the deposited data

How the results depend on the processing

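The number of members called in the deposited count table was 44 and lay between 38 and 43 under the alternatives of a threshold of 0.01, the FPKM table, other centring, 50 or more counts, and single-gene loci. Requiring a log2 fold change of at least 1 as well left 12 members (6 higher, 6 lower) and 7 of the 34 called partners. Over all loci of the count table the same limit left 1972 higher and 988 lower of the 11388 called. It also left 12 of the 40 members called in the FPKM table and 14 of the 39 called transcripts, these 2 with 0.1 FPKM added. Of the 42 members at 50 or more counts, 36 had the same call in the FPKM table, and 35 of these the same direction, CDH10 being the exception. CLDN7, CTNND1, CLDN9, PVRL1 and PVRL3 did not pass there, and CDH6 passed (log2 fold change -0.15, q = 0.0499). Centring on loci of at least 1000 counts ended 1 call, CLDN7 (adjusted p = 0.335, recomputed from the fold change and SE of the authors' deposited count table), and no alternative that was run reversed a direction that had been called. No paired analysis was possible because values for each library are not used here, and leaving out a library was not run for the same reason. Of the 49 members under 50 counts, 6 had no reads and 17 had reads but no adjusted p.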
